A study of Mus musculus with 8 samples.

Results

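Macrophages that had or had not taken up apoptotic fibroblasts were compared for 10 genes through which an antigen-presenting cell signals to T cells: the co-stimulatory molecules *Cd40*, *Cd80*, *Cd83*, *Cd86* and *Icosl*, and the checkpoint molecules *Cd274* (PD-L1), *Pdcd1lg2* (PD-L2), *Cd276* (B7-H3), *Havcr2* (TIM-3) and *Vsir* (VISTA). The genes were listed by symbol and matched through the mouse GENCODE annotation, and the list was chosen with earlier results of these data known. All 10 were found among the 55359 genes listed, and all 10 passed the filter on low values (a mean of at least 10 normalized counts over the samples), as did 16309 genes in all. Total RNA was sequenced from bone-marrow-derived Mϕ (BMDMs) of wildtype C57BL/6 mice, adult and of both sexes, differentiated with M-CSF and GM-CSF (20 ng/mL each). Ctrl was the naïve culture, which the labels call control and nothing more. LPS stands for naïve Mϕ that received LPS (100 ng/mL) together with IFNγ (100 U/mL) for 6 h. Eff stands for efferocytic Mϕ, which after 6 days of differentiation were kept for 16 h with apoptotic NIH-3T3 fibroblasts, 5 per Mϕ, and 10 nM of the dimerizer that activates a caspase in the fibroblasts. LPSEff stands for Mϕ that went through this co-culture, a wash and then the stimulation of the LPS group. Each of the 4 groups had n = 2 samples, and all cells were selected with CD45 beads before RNA isolation. LPS and IFNγ were always given together, the fibroblasts are mouse cells like the Mϕ, and whether the naïve cultures received dimerizer is not given in the sources used here. Since the labels do not say that replicates came from separate animals or cultures, all p-values measure the spread between these samples, which may be technical.

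A T cell that recognises its antigen needs a co-stimulatory signal to become fully active. CD80 and CD86 provide it through CD28 on the T cell and ICOSL through ICOS, while CD40 is a receptor that takes up CD40L from the T cell and licenses the antigen-presenting cell. PD-L1 and PD-L2 engage PD-1 and restrain the T cell, and VISTA and TIM-3 are checkpoint molecules that myeloid cells carry themselves. In Mϕ, microbial products acting through NF-κB, and IFNγ, are known inducers of several of these genes.

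In GRCm39, *Cd274* (ENSMUSG00000016496, chr19:29344529-29365495) and *Pdcd1lg2* (ENSMUSG00000016498, chr19:29388319-29448882) were neighbours on the plus strand, 22823 bp apart. *Cd80* (ENSMUSG00000075122, chr16:38275923-38316697, plus strand) and *Cd86* (ENSMUSG00000022901, chr16:36424044-36486443, minus strand) lay 1789479 bp apart. *Vsir* (ENSMUSG00000020101, chr10:60182630-60208463, plus strand) shared its chromosome with *Icosl* (ENSMUSG00000000732, chr10:77905136-77919747, plus strand) and sat inside *Cdh23*, a gene of the opposite strand, with 0 bp of exon in common. The remaining genes were *Cd40* (ENSMUSG00000017652, chr2:164897544-164914868, plus strand), *Cd83* (ENSMUSG00000015396, chr13:43938251-43956634, plus strand), *Cd276* (ENSMUSG00000035914, chr9:58431412-58463665, minus strand) and *Havcr2* (ENSMUSG00000020399, chr11:46345673-46374149, plus strand). Opposite-strand exons covered 6.68% (*Timmdc1*) and 1.70% (*Gm60172*) of the exon length of *Cd80*, 14.2% (*Gm36043*) and 5.37% (*Plgrkt*) of *Cd274* and 9.87% (*Gm10657*) of *Cd276*. Reads there cannot be assigned to 1 gene with certainty unless strand was kept in counting.

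The 250 bases upstream of each gene's canonical start were searched on both strands for motifs of factors through which LPS and IFNγ are known to act. Among these motifs were the core of the interferon-stimulated response element (GAAA, any 2 bases, GAAA), the κB site and the AP-1 site (TGANTCA). A κB match was found in *Cd40*, *Pdcd1lg2* and *Icosl*, and in 7.63% of 21757 promoters of protein-coding genes. *Cd274* held the interferon-response core, as did 3.32% of promoters. *Cd80* and *Havcr2* held an AP-1 match, as did 6.18% of promoters. The windows with a κB or interferon-response match are shown, and these 4 genes were called higher in stimulated naïve Mϕ. Of the others, *Cd80* (AP-1), *Cd83* and *Cd86* (no match) were called higher too, and *Havcr2* (AP-1) was not called. *Cd276* and *Vsir* (no match) were called lower. In the whole set, 7 of 10 genes were called higher. The window of *Cd80* holds annotated exons and is not shown. The windows shown run 5′ to 3′ on the plus strand with the match in capitals. In *Cd274* and *Icosl* the match is read from the opposite strand. A match describes letters and not binding.
Cd40, chr2:164897294-164897543: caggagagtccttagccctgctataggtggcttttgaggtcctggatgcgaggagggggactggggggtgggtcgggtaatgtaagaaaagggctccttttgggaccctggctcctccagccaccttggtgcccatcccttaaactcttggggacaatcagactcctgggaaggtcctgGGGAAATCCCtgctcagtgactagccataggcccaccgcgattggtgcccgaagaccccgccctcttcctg
Cd274, chr19:29344279-29344528: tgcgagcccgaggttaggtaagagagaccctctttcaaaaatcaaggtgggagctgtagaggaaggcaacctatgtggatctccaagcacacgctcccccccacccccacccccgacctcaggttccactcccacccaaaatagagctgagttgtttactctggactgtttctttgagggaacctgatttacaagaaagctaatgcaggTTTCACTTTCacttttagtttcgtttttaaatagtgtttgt
Pdcd1lg2, chr19:29388069-29388318: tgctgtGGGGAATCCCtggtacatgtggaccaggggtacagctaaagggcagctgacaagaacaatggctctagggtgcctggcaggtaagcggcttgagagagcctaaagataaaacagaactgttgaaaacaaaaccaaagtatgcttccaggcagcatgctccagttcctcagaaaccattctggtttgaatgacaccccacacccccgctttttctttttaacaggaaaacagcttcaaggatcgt
Icosl, chr10:77904886-77905135: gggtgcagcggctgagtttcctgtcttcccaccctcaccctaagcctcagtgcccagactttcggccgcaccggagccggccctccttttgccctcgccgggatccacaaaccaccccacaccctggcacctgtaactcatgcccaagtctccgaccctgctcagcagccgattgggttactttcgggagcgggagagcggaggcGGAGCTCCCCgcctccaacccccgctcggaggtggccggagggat

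All values below are normalized counts, the reads of a gene divided by 1 size factor per sample. The reads could be recovered exactly and came to 3481288 to 12020918 per sample, so that 3 reads were worth 1.73 to 5.71 normalized counts, and such limits cover counting error only. Ctrl replicate 1 was the shallowest. The markers of Mϕ (12 genes, among them *Adgre1*, *Csf1r* and *Cd68*) summed to between 113554 and 169179 normalized counts. *Lyz2* alone held 54327 to 103975 of that. T cell markers (12 genes) summed to between 157.5 and 660.7, most of it *Cd28* in the unstimulated samples, with at most 5 reads for *Cd3e*, *Cd3d*, *Cd3g* or *Trac* in any sample. B cell markers (6 genes) summed to between 82.3 and 153.8, most of it *Cd22*, and neutrophil markers (8 genes) to between 722.9 and 2647. Differences are log2 fold changes of normalized counts with 1 added, from limma with all 8 samples in the fit, and a call means an adjusted p under 0.05 (Benjamini-Hochberg, over the 16309 genes). The added count understates the change of low genes. An exact permutation test of 2 against 2 samples cannot go below p = 0.333.

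**Figure D1:**
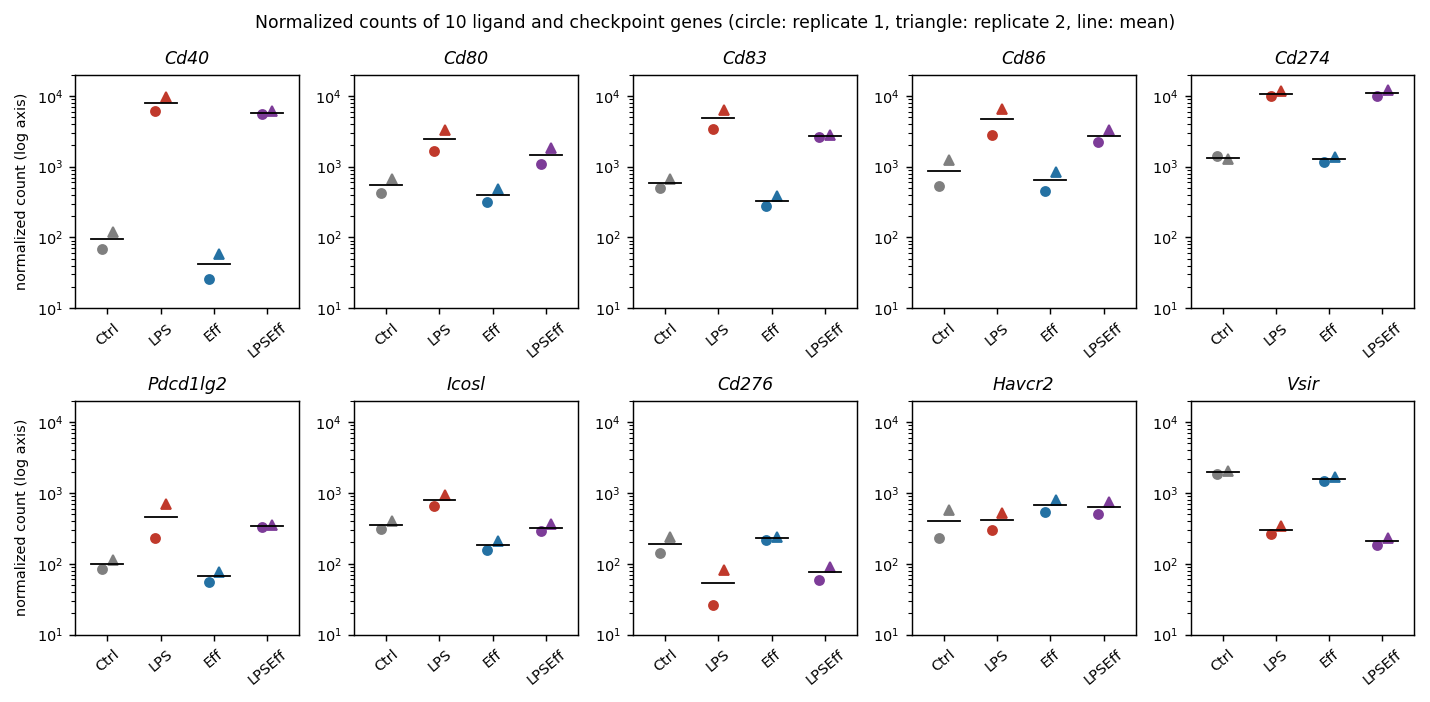
Normalized counts (log axis) of the 10 genes in Ctrl, LPS, Eff and LPSEff, with replicate 1 as a circle, replicate 2 as a triangle and the mean of both as a line. On this log axis *Cd40* spans the widest range, from 26.3 in an Eff sample to 9749 in an LPS sample, and *Vsir* is the gene with its 4 stimulated samples (184.5 to 342.2) far below its 4 unstimulated ones (1470 to 2039).

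To ask which of these molecules Mϕ induce upon an inflammatory stimulus, LPS was first compared with Ctrl. Of the 10 genes, 7 rose and 2 fell, where limma called 24.0% of all tested genes (12.4% higher and 11.6% lower). The median difference was 2.06 for the 10 genes and -0.01 for all tested genes. *Cd40* rose the most, *Vsir* fell the most, and *Havcr2* was the gene without a call.

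*Cd40* stood at 68.6 and 120.3 in Ctrl and at 6128 and 9749 in LPS. From near the bottom of the set it became one of its most abundant transcripts. The difference was 6.40 (SE 0.41, 95% interval 5.45 to 7.34), an 84.2-fold rise with an adjusted p of 5.8e-05. *Cd83*, a maturation marker that stabilises MHC class II and CD86 at the surface, had 506.5 and 666.2 in Ctrl and 3405 and 6263 in LPS. It rose by 2.99 (SE 0.30, adjusted p = 0.000405), or 7.94-fold.

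In both CD28 ligands, replicate 2 was higher than replicate 1 in all 4 groups. *Cd80* went from 430.3 and 677.8 to 1658 and 3320, a rise of 2.12 (SE 0.41, adjusted p = 0.00741). *Cd86* went from 525.6 and 1225 to 2773 and 6611, a rise of 2.41 (SE 0.53, adjusted p = 0.013). In both, the groups were apart although replicates differed by up to 2.38-fold. *Cd86* exceeded *Cd80* per kb of exon in each sample of the study, by 1.31- to 2.17-fold. *Icosl* had 306.6 and 396.7 in Ctrl and 663.5 and 924.1 in LPS, the smallest called rise of the set at 1.16 (SE 0.26, 95% interval 0.56 to 1.77, adjusted p = 0.0145).

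Among the checkpoint ligands, *Cd274* was the most even between replicates, with 1409 and 1273 in Ctrl and 9841 and 11727 in LPS. It rose 8.01-fold (SE 0.20 on the log2 scale, 95% interval 2.55 to 3.46, adjusted p = 6.1e-05). Its neighbour *Pdcd1lg2* was far lower, at 85.7 and 114.5 in Ctrl and 228.9 and 700.7 in LPS. The LPS replicates of *Pdcd1lg2* were 3.06-fold apart, and its rise of 2.01 (SE 0.47, 95% interval 0.93 to 3.08) had an adjusted p of 0.0168.

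The other checkpoint genes went the opposite way or stayed without a call. *Vsir* fell from 1874 and 2039 to 260.0 and 342.2, which is 6.53-fold lower (log2 -2.71, SE 0.21, adjusted p = 0.00012). *Cd276*, a B7 family member whose T cell receptor is not settled, had 142.8 and 241.7 in Ctrl and 25.9 and 82.3 in LPS. It fell by 1.98 (SE 0.51, adjusted p = 0.0257), and 1 of its LPS values rested on 20 reads. *Havcr2* had 228.5 and 576.6 in Ctrl and 296.2 and 523.0 in LPS, so that the groups overlapped. Its difference was 0.12 with a 95% interval of -0.95 to 1.18 (adjusted p = 0.893).

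edgeR and DESeq2 on the recovered reads each called 9 of the 10 genes as well, where they called 24.5% and 24.3% of all genes. The calls of *Cd40*, *Cd83*, *Cd274* and *Vsir* held without any 1 sample. Without Ctrl replicate 1, the calls of *Cd80* (adjusted p = 0.0589), *Cd86* (0.0886), *Pdcd1lg2* (0.0998), *Icosl* (0.0986) and *Cd276* (0.0540) were lost. *Pdcd1lg2* (0.0546) and *Cd276* (0.149) also lost theirs without Ctrl replicate 2, *Cd86* (0.0609) and *Icosl* (0.0720) without LPS replicate 2, and *Cd276* without LPS replicate 1 (0.0896) and in a fit of the groups compared alone (0.0564). With samples rescaled to equal totals, which moved the median of all genes by -0.40 here and -0.44 in efferocytic Mϕ, the difference of *Havcr2* turned to -0.28, and higher genes made up 24.8% of all calls in place of 51.5% (in efferocytic Mϕ 21.8% in place of 54.6%). The directions of the 9 called genes were the same under that scaling. Of 12 tested markers of Mϕ, limma called 3 higher in LPS than in Ctrl, where it called 12.4% of all genes higher. These were *Cd14* (log2 3.15), *Mertk* (1.89) and *Adgre1* (1.35), and the calls of *Mertk* and *Adgre1* did not hold under every alternative. The 12 markers did not move 1 way: 6 had a difference above 0 and 6 below 0, with 0 called lower. Below 0 was *Mrc1*, for example, with 5223 and 5027 in Ctrl and 1591 and 3257 in LPS. Some markers of other cell types were called with stimulation too. limma called 4 of 10 tested dendritic cell markers higher in LPS than in Ctrl, among them *Ccl22* (log2 3.79), *Fscn1* (3.08) and *Ccr7* (2.41), and 1 lower, and 3 of 6 tested neutrophil markers higher. The 8 neutrophil markers summed to 1118 and 722.9 in Ctrl and to 1865 and 2213 in LPS, and the sums of the dendritic cell list are given with the efferocytosis comparisons. The part of such cells in the differences of the 10 genes was not tested.

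Next, LPSEff was compared with Eff to see whether Mϕ that had ingested apoptotic cells still induced these molecules. limma called 6 of the 10 genes higher and 1 lower, against 19.7% of all tested genes (10.7% higher and 8.95% lower). The median difference was 1.98 for the 10 genes and 0.01 for all tested genes.

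*Cd40* went from 26.3 and 58.6 in Eff to 5490 and 6027 in LPSEff. This 143-fold rise (log2 7.16, SE 0.41, adjusted p = 3.0e-05) was again the largest of the set. *Cd83* rose from 282.2 and 379.0 to 2583 and 2802 (log2 3.04, SE 0.30, adjusted p = 0.000379). *Cd80* rose from 319.8 and 482.7 to 1087 and 1808 (log2 1.83, adjusted p = 0.0155), and *Cd86* from 451.3 and 839.1 to 2195 and 3288 (log2 2.12, adjusted p = 0.0248). All 4 genes were higher in both LPSEff samples than in either Eff sample.

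*Cd274* rose from 1180 and 1356 to 9895 and 12121, or 8.65-fold (log2 3.11, SE 0.20, adjusted p = 4.3e-05). *Pdcd1lg2* rose from 55.2 and 77.6 to 328.6 and 355.4 (log2 2.37, SE 0.47, adjusted p = 0.00962). *Vsir* fell from 1470 and 1699 to 184.5 and 234.8, or 7.56-fold (log2 -2.92, SE 0.21, adjusted p = 7.8e-05). Thus the PD-1 ligands and VISTA moved in opposite directions in naïve and in efferocytic Mϕ alike.

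*Icosl* and *Cd276* were apart between the groups but not called by limma. *Icosl* had 154.2 and 209.6 in Eff and 286.6 and 363.0 in LPSEff, a difference of 0.84 with a 95% interval of 0.24 to 1.44 (adjusted p = 0.0578). *Cd276* had 218.2 and 237.1 in Eff and 59.4 and 91.4 in LPSEff, a difference of -1.61 with an interval of -2.79 to -0.43 (adjusted p = 0.0618). edgeR and DESeq2 called both, and with them 9 of the 10 genes each, where they called 21.5% and 21.6% of all genes. *Havcr2* overlapped again, with 535.4 and 795.4 in Eff and 504.3 and 751.3 in LPSEff (log2 -0.08, adjusted p = 0.928).

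The calls of *Cd80* (adjusted p = 0.0995), *Cd86* (0.143) and *Pdcd1lg2* (0.0639) were lost without Eff replicate 1. Without LPSEff replicate 2, *Cd80* (0.0903) and *Cd86* (0.121) lost theirs, as did *Cd86* without LPSEff replicate 1 (0.0631).

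Whether the response itself differed between naïve and efferocytic Mϕ was tested as the difference between both stimulation effects. limma called 0 of the 10 genes, and 0.0% of all genes, with 0 of 10 at an unadjusted p under 0.05 where 1.91% of all genes were. edgeR and DESeq2 also called 0 genes. For *Cd40* the response in efferocytic Mϕ exceeded that in naïve Mϕ by 0.76 on the log2 scale, with a 95% interval of -0.58 to 2.10. For *Icosl* it was smaller by 0.33 (interval -1.18 to 0.53). The interval was narrowest for *Cd274*, with a difference of 0.11 (interval -0.53 to 0.76). A difference in response within these intervals was not excluded by these samples.

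**Figure D2:**
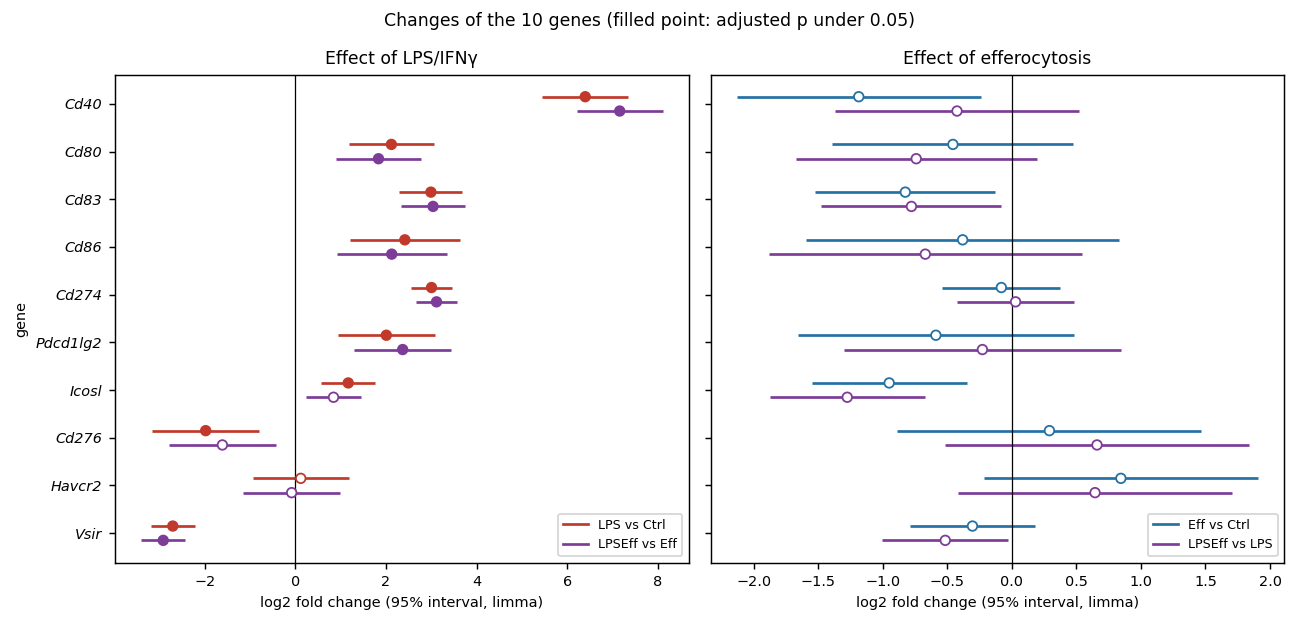
Differences of the 10 genes on the log2 scale (limma, points) with 95% intervals (lines) for stimulation in naïve and efferocytic Mϕ (left) and for efferocytosis without and with stimulation (right, narrower axis), where filled points have an adjusted p under 0.05. Filled points occur on the left only, from -2.92 (*Vsir*, LPSEff vs Eff) to 7.16 (*Cd40*, LPSEff vs Eff), and the intervals of *Icosl* lie below 0 on both lines on the right.

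To determine the effect of efferocytosis alone, Eff was compared with Ctrl. limma called 0 of the 10 genes, where it called 0.251% of all tested genes. edgeR and DESeq2 called 0 of 10 as well, where they called 0.0858% and 1.27% of all genes. At an unadjusted p under 0.05 there were 3 genes, *Cd40*, *Cd83* and *Icosl*, against 6.13% of all genes. The difference was below 0 in 8 genes and above 0 in *Cd276* and *Havcr2*, with a median of -0.42 (-0.01 for all genes). Both Eff samples lay below both Ctrl samples in 5 genes (*Cd40*, *Cd83*, *Pdcd1lg2*, *Icosl* and *Vsir*) and above them in 0, against 17.8% and 16.3% of all genes. This comparison shares its Ctrl samples with that of LPS with Ctrl, and its Eff samples with that of LPSEff with Eff.

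*Icosl* had the smallest p of the set, with 306.6 and 396.7 in Ctrl and 154.2 and 209.6 in Eff. Its difference was -0.95 with a 95% interval of -1.55 to -0.35 (unadjusted p = 0.00636, adjusted p = 0.379). *Cd83* differed by -0.83 (interval -1.52 to -0.13, adjusted p = 0.648) and *Cd40* by -1.19 (interval -2.13 to -0.24, adjusted p = 0.594). *Cd40* was the lowest gene of the set per kb in both groups, and its 4 values here rested on 30 to 208 reads. *Cd274* overlapped between the groups at -0.08, and its interval of -0.54 to 0.37 was the narrowest in the set. *Havcr2* had 228.5 and 576.6 in Ctrl and 535.4 and 795.4 in Eff, a difference of 0.84 with an interval of -0.22 to 1.91 (adjusted p = 0.962). That a p misses the threshold here does not show that these genes did not differ.

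LPSEff was compared with LPS for the effect of efferocytosis on stimulated Mϕ. Here limma called 0 of the 10 genes and 0.773% of all tested genes. edgeR called 0 of 10 (0.773% of all genes). DESeq2 called *Icosl* (adjusted p = 0.000565), where it called 2.26% of all genes. At an unadjusted p under 0.05 there were *Cd83*, *Icosl* and *Vsir*, against 10.3% of all genes. The difference was below 0 in 7 genes, with a median of -0.47 for the 10 genes and -0.00 for all genes. Both LPSEff samples were below both LPS samples in 4 genes (*Cd40*, *Cd83*, *Icosl* and *Vsir*) and above them in 0, against 17.0% and 19.3% of all genes.

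*Icosl* again had the smallest p, with 663.5 and 924.1 in LPS and 286.6 and 363.0 in LPSEff. The groups did not overlap, and the stimulated efferocytic samples overlapped the unstimulated naïve ones (306.6 and 396.7). The difference was -1.28, or 2.42-fold lower, with a 95% interval of -1.88 to -0.68 (unadjusted p = 0.00114, adjusted p = 0.0933). It was called in 5 of 19 alternatives, among them quantile normalization (adjusted p = 0.0396) and equal totals (0.0426). Over all alternatives the difference stayed between -1.52 and -1.04, with an adjusted p of up to 0.496.

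*Cd83* had 3405 and 6263 in LPS and 2583 and 2802 in LPSEff (log2 -0.78, interval -1.48 to -0.08, adjusted p = 0.419). *Vsir*, already low after stimulation, had 260.0 and 342.2 against 184.5 and 234.8 (log2 -0.52, SE 0.21, adjusted p = 0.448). *Cd80* and *Cd86* differed by -0.74 and -0.67, with intervals that include 0 and groups that overlapped. The PD-1 ligands did not differ beyond their spread: *Cd274* had 9841 and 11727 in LPS and 9895 and 12121 in LPSEff (log2 0.03, interval -0.43 to 0.48), and *Pdcd1lg2* had a wide interval (log2 -0.23, interval -1.30 to 0.84).

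The levels of the dendritic cell markers moved alongside these differences. The list (12 genes, among them *Flt3*, *Zbtb46*, *Ccr7* and *Ccl22*) summed to 10547 and 17036 in Ctrl and 5855 and 10099 in Eff. After stimulation the sum was 58070 and 109122 in LPS and 33545 and 40008 in LPSEff. In LPS, *Ccl22* held 29538 and 57812 of it and *Fscn1* 17471 and 26711. All 10 tested markers had a difference below 0 in both efferocytosis comparisons, Eff vs Ctrl first (medians -0.74 and -0.82). limma called 0 of them in either comparison, edgeR 0 and DESeq2 2 and 3. An unadjusted p under 0.05 was reached by 4 and 5, beside 6.13% and 10.3% of all genes. Of the 2 markers not tested, *Clec9a* had at most 13 reads and *Cd209a* at most 14 reads in any sample. The part of such cells in the lower *Icosl*, *Cd83* and *Cd40* values was not tested, and in bulk RNA fewer cells of a type and less RNA per cell cannot be told apart.

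Transcripts of fibroblasts were present in the efferocytic samples despite the CD45 selection. The list (14 genes) summed to 114.3 and 170.6 in Ctrl and to 1289 and 2915 in Eff. With stimulation it summed to 529.0 and 700.7 in naïve and to 4302 and 4173 in efferocytic Mϕ. For efferocytosis, limma called 0.251% of all tested genes without stimulation and 0.773% with it, in either direction. Of the 11 tested fibroblast markers it called 5 higher in Eff than in Ctrl and 6 higher in LPSEff than in LPS. The 6 included *Col3a1*, *Dcn* and *Prrx1*, which had only 1.02 to 6.47 normalized counts in the LPS samples. These genes passed the filter on low values through the efferocytic samples. Among the markers called in both comparisons were *Col1a2* (log2 5.42 and 5.02) and *Pdgfra* (3.16 and 4.47). These calls were lost when single samples were left out: without Eff replicate 2, *Col1a2* and *Pdgfra* had an adjusted p of 0.273 and 0.267 in Eff vs Ctrl, and without LPSEff replicate 1 they had 0.243 and 0.128 in LPSEff vs LPS. Not every marker went this way: of the 11 tested, 1 had a difference below 0 with efferocytosis alone and 2 after stimulation, and *Lum*, *Postn* and *Fap*, not tested, had at most 4, 27 and 18 reads in any sample. *Pdgfrb* had 245.7 and 244.7 in LPS and 82.3 and 157.4 in LPSEff, and *Thy1* had 38.8 and 88.3 and then 38.0 and 48.2. limma called *Pdgfrb* (log2 4.11) and *Fbn1* (3.57) higher in LPS than in Ctrl. *Cd276*, which many non-immune cells express too, differed by 0.29 in Eff vs Ctrl (interval -0.89 to 1.47) and by 0.66 in LPSEff vs LPS (interval -0.52 to 1.84), neither called. The part of fibroblast RNA in the values of *Cd276* was not tested. Among neutrophil markers, *S100a8* was higher in Eff than in Ctrl (log2 1.24, adjusted p = 0.0402), a call lost without either Eff or either Ctrl sample (adjusted p of up to 0.305).

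**Figure D3:**
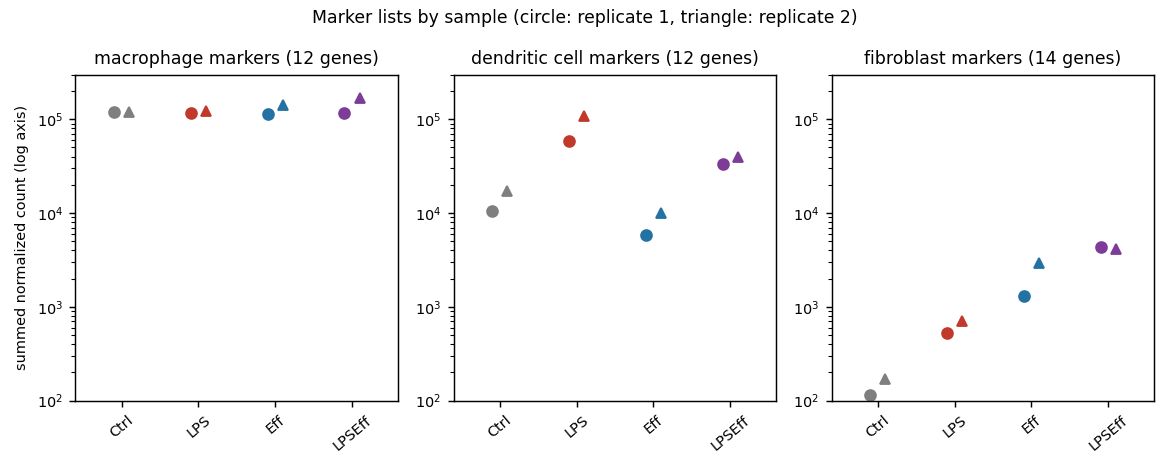
Summed normalized counts (log axis) of the markers of Mϕ, dendritic cells and fibroblasts in each sample, with replicate 1 as a circle and replicate 2 as a triangle. The Mϕ sum stays between 113554 and 169179, of which *Lyz2* alone holds 54327 to 103975. The dendritic cell sum is lower in Eff than in Ctrl and lower in LPSEff than in LPS, and the fibroblast sum is highest in LPSEff (4173 and 4302).

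To compare the genes with each other, normalized counts were divided by the length of their merged exons in kb. In Ctrl the order was led by *Vsir* (390 ± 23.2 normalized counts per kb, SD, n = 2), which lay above *Cd274* (329 ± 23.5) without overlap. *Cd86* (227), *Cd83* (192) and *Cd80* (134) followed, of which only *Cd83* and *Cd80* were apart, then *Havcr2* (82.5) and *Icosl* (76.1), which overlapped, and *Pdcd1lg2* (43.9), *Cd276* (37.5) and *Cd40* (27.7), whose neighbours overlapped. In Eff, *Vsir* (316) and *Cd274* (311) overlapped at the top and *Cd40* (12.4) was again last, below *Pdcd1lg2* (29.1) without overlap. *Havcr2* took the place after *Cd86* in Eff (136), with an overlap on either side.

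Stimulation reordered the set. In LPS, *Cd274* (2643 ± 327) and *Cd40* (2329 ± 751) led and overlapped, with *Cd83* (1585), *Cd86* (1219) and *Cd80* (603) behind them in a chain of overlapping neighbours. *Vsir* dropped to the place before last (60.1) and *Cd276* was last (10.5). In LPSEff, *Cd274* (2697 ± 386) was apart from *Cd40* (1689 ± 111), and *Cd40* from *Cd83* (883 ± 50.9). At the lower end of LPSEff, *Havcr2* (129), *Icosl* (70.3), *Vsir* (41.8) and *Cd276* (14.7) were each apart from the next.

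Of the summed level per kb of the 10 genes, *Vsir* made up 23.2% to 28.2% in the unstimulated samples and 0.606% to 0.761% in the stimulated ones. *Cd40* made up 0.709% to 2.01% before and 23.9% to 26.5% after stimulation. *Cd274* had the largest share of the LPSEff samples (39.9% and 40.1%), against 35.4% and 26.1% in LPS. The ratio of *Cd274* to *Vsir* per kb was 0.924 and 0.767 in Ctrl and 0.986 and 0.981 in Eff. Stimulation brought it to 46.5 and 42.1 in naïve and to 65.9 and 63.4 in efferocytic Mϕ. This ratio was thus higher in both LPSEff samples than in both LPS samples, a difference that was not tested. Of its 2 genes, *Cd274* differed by 0.03 and *Vsir* by -0.52 on the log2 scale between these groups, neither called. The ratio of *Cd274* to *Pdcd1lg2*, the 2 PD-1 ligands, lay between 6.22 and 24.0 in all samples. *Havcr2* made up 3.54% and 6.73% in Ctrl and 10.1% and 11.4% in Eff.

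**Figure D4:**
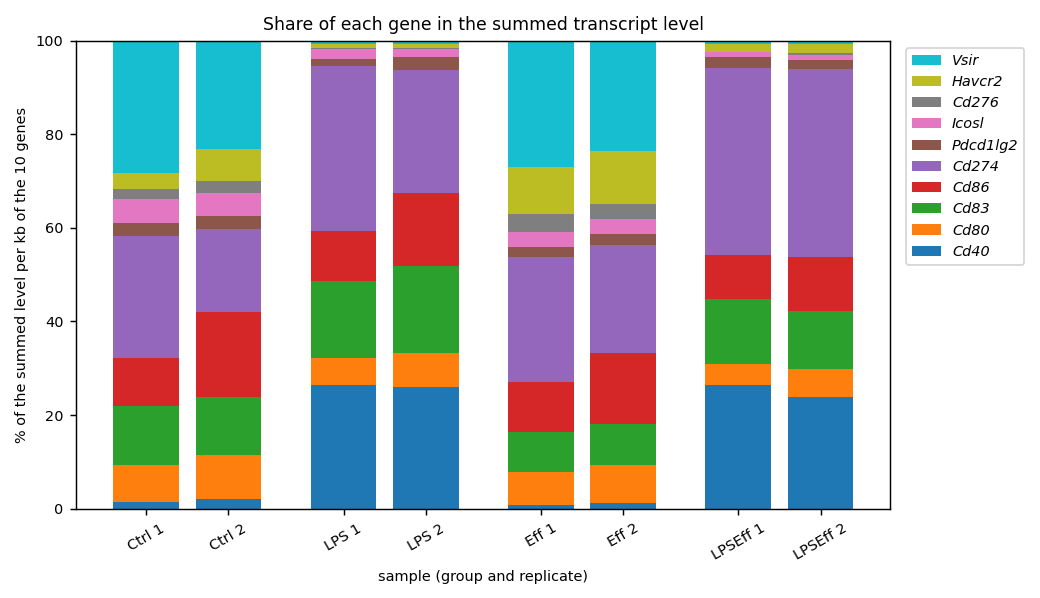
Share of each of the 10 genes in their summed level per kb of exon, in percent, with 1 bar for each of the 8 samples. *Vsir* fills 23.2% to 28.2% of the unstimulated bars and under 1% of the stimulated ones, while *Cd40* widens from at most 2.01% to at least 23.9%.

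Of 17 other ligands of T cell co-receptors tested, in a list of 23, limma called 14 higher and 2 lower in LPS vs Ctrl (median 1.74) and 12 higher and 1 lower in LPSEff vs Eff (median 1.92), beside the 24.0% and 19.7% of all tested genes called in these comparisons. *Tnfsf15* (TL1A, a TNF family ligand of the receptor DR3) stood at 22.9 and 38.2 in Ctrl and reached 5800 and 6514 in LPS, while efferocytic Mϕ went from 15.8 and 17.6 to 1697 and 2993. It rose by 7.65 in naïve and by 6.99 in efferocytic Mϕ (adjusted p = 9.5e-06 and 1.3e-05). *Cd200*, the ligand of an inhibitory myeloid receptor, rose by 3.57 and 2.96, *Nectin2* by 3.37 in naïve Mϕ, and the adhesion molecule *Icam1* by 3.04 in efferocytic Mϕ. *Cd70*, the ligand of CD27, went from at most 3 reads in any unstimulated sample to 70.1 and 77.6 normalized counts in LPS and to 20.3 and 42.8 in LPSEff. *Tnfsf14* (LIGHT) fell by 3.27 in naïve and by 2.81 in efferocytic Mϕ, the latter call being lost without Eff replicate 1 (adjusted p = 0.0818). In Eff vs Ctrl and LPSEff vs LPS, limma and edgeR called 0 of the 17, DESeq2 1 and 3, and 4 and 7 had an unadjusted p under 0.05 (medians -0.21 and -0.34), where 6.13% and 10.3% of all genes did.

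Components of CD40 signalling were induced together with the receptor. Of 16 genes tested, limma called 15 higher in LPS vs Ctrl (median 1.76) and 14 higher in LPSEff vs Eff (median 1.92), with 0 called lower. Of all tested genes it called 12.4% and 10.7% higher in these comparisons. The adaptor *Traf1* rose by 3.12 and 3.32, the NF-κB subunit *Nfkb2* by 2.74 and 3.08, the ubiquitin ligase *Birc3* by 2.53 and 2.69, and the negative regulators *Tnfaip3* by 3.77 and 3.70 and *Nfkbia* by 2.63 and 2.41. These calls held without any 1 sample. In Eff vs Ctrl and LPSEff vs LPS, limma and edgeR called 0 of 16 in each and DESeq2 1 and 0 (medians -0.31 and -0.28). An unadjusted p under 0.05 was reached by 3 and 3, beside 6.13% and 10.3% of all genes.

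Among genes of the IFNγ response, the transcription factor *Irf1* rose by 3.64 in naïve and by 4.16 in efferocytic Mϕ (adjusted p = 6.0e-05 and 3.0e-05). The inhibitor *Socs1* (2.93 and 2.54), the kinase *Jak2* (2.45 and 2.75) and the transcription factor *Irf8* (2.04 and 1.74) rose in both as well, and the calls of these 4 genes held without any 1 sample.

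Of 8 tested genes listed for the handling of proteins after synthesis, limma called 4 higher and 2 lower in LPS vs Ctrl (median 0.49). It called 3 higher and 1 lower in LPSEff vs Eff (median 0.95). Of all tested genes it called 24% and 19.7% in these comparisons. *Cmtm6*, whose product protects PD-L1 from degradation, rose by 1.20 in naïve Mϕ (adjusted p = 0.0296), while its relative *Cmtm4* fell by 1.10 and 0.77. The proteases *Furin* (1.54 and 1.42), *Sppl2a* (1.44 and 1.64) and *Adam17* (0.94 and 1.10) rose in both. Another listed protease, *Adam10*, went the other way, from 2752 and 3156 in Ctrl to 1390 and 2316 in LPS. In efferocytic Mϕ it went from 2167 and 2837 to 1377 and 2114, without a call by limma. Of the 8 genes, 5 had a difference above 0 and 3 below 0 in each comparison. Each call of *Cmtm6*, *Cmtm4*, *Furin*, *Sppl2a* and *Adam17* was lost without at least 1 sample. In naïve Mϕ this was Ctrl replicate 1 for *Cmtm6* (adjusted p = 0.175), *Sppl2a* (0.133), *Adam17* (0.0797) and *Cmtm4* (0.0533), and Ctrl replicate 2 for *Furin* (0.0569). In efferocytic Mϕ it was Eff replicate 1 for *Sppl2a* (0.0948) and Eff replicate 2 for *Cmtm4* (0.222), *Furin* (0.0759) and *Adam17* (0.0526). Quantile normalization also ended the calls of *Furin* (0.131 and 0.275), *Sppl2a* (0.146 and 0.0752) and *Adam17* (0.307 and 0.121) in naïve and efferocytic Mϕ and that of *Cmtm6* (0.151) in naïve Mϕ. With equal totals, *Cmtm6* (0.0539) and *Adam17* (0.0616) lost theirs in naïve Mϕ and *Furin* (0.0505) in efferocytic Mϕ. For efferocytosis, limma, edgeR and DESeq2 called 0 of 8 in both comparisons. An unadjusted p under 0.05 was reached by 0 and 1, beside 6.13% and 10.3% of all genes.

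Inhibitory receptors that Mϕ themselves carry moved in both directions. Of 12 tested in a list of 15, limma called 2 higher and 3 lower in LPS vs Ctrl (median 0.16). It called 2 higher and 2 lower in LPSEff vs Eff (median 0.18). Of all tested genes it called 24% and 19.7% in these comparisons. *Cd200r1*, the receptor of CD200, fell by 2.13 and 1.64, whereas its ligand rose as given above. *Lair1*, a collagen receptor, fell by 1.30 and 1.40, *Cd300a* fell by 2.29 in naïve Mϕ, and *Pilra* rose by 1.21 and 1.10. In naïve Mϕ the call of *Cd200r1* held without any 1 sample, while those of *Cd300a* (adjusted p = 0.102) and *Lair1* (0.0574) were lost without Ctrl replicate 2 and that of *Pilra* (0.0805) without Ctrl replicate 1. In efferocytic Mϕ, *Cd200r1* (0.0572), *Lair1* (0.0510) and *Pilra* (0.0731) lost theirs without LPSEff replicate 1, and *Pilra* lost both of its calls with quantile normalization (0.0579 and 0.0542). *Pdcd1*, which encodes PD-1, stayed between 1.90 and 29.2 normalized counts, with at most 23 reads in any sample. limma called it higher in LPS (15.5 and 14.2) than in Ctrl (1.90 and 2.31, adjusted p = 0.0155). Its Ctrl and Eff values were all below 10, so that it passed the filter on low values through the stimulated samples. The call was lost in a fit of the groups compared alone (adjusted p = 0.0703). It was also lost without Ctrl replicate 1, LPS replicate 1 or LPS replicate 2. *Clec12a*, an inhibitory lectin, was the gene of these lists of ligands, receptors and signalling components that limma called for efferocytosis. It had 731.2 and 776.7 in Ctrl and 304.1 and 343.0 in Eff, a fall of 1.22 (SE 0.17, adjusted p = 0.0402). This call for efferocytosis held in 9 of 19 alternatives and was lost without any 1 of the 8 samples, with an adjusted p of up to 0.267. In LPSEff vs LPS, limma, edgeR and DESeq2 called 0 of the 12 receptors. An unadjusted p under 0.05 was reached by 4 of them, beside 10.3% of all genes.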

How the data were processed

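Total RNA of 8 samples (4 groups, n = 2) was depleted of rRNA and sequenced from a single end. The authors trimmed adapters (cutadapt), discarded rRNA reads (bowtie2), aligned the rest to mm39 (STAR) and counted reads per gene (htseq-count, default mode). They used DESeq2, and versions and annotation release are not given in the sources used here. The deposited signal of a gene is its normalized count, the authors' read count over a size factor per sample (0.525 to 1.73). All values (100%) were whole multiples of the smallest nonzero value of the sample (tolerance 0.001), which gave the recovered reads (3481288 to 12020918).

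Symbols, positions and merged exon lengths came from GENCODE for GRCm39, which named 54749 of 55359 identifiers. Because the deposited values are normalized, the main test was on a log scale: limma 3.58.1 (R 4.3.3, with a trend, two-sided) on log2(normalized count + 1) of genes with a mean of at least 10, with the 4 group means in 1 fit (4 residual degrees of freedom). Alternatives were edgeR 4.0.16 and DESeq2 1.42.0 on the recovered reads, pseudocounts of 0.5 and 5, filters at a mean above 0 and at 50, a fit of the compared groups alone, the replicate number as a block, quantile normalization, equal totals and leaving out each sample. The tests were checked on simulated counts. Promoter windows were read from the GRCm39 genome.

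All 10 member genes are named. From each further list, up to 5 called genes with the largest difference per comparison could be named. The members and lists were chosen with earlier results of these data known. Of 1 further list, a member and the counts that include it are not reported here.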

Additional observations from a re-analysis of the deposited data

How the results depend on the processing

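Of the member genes' differences under the alternatives, 850 kept direction and side of the threshold, 17 lost a call, 35 gained one and 38 changed sign. The count of called members for stimulation, in naïve and in efferocytic Mϕ, lay between 4 and 9 when 1 sample was left out, lowest without Ctrl replicate 1 and without Eff replicate 1, respectively. For both efferocytosis comparisons and the difference between the stimulation effects it remained 0 when any 1 sample was left out. In LPSEff vs LPS the count was 1 under quantile normalization, equal totals and DESeq2. The replicate numbers are only shared numbers: the labels do not say that samples of a number were prepared together. Differences between replicate 2 and replicate 1 correlated between groups across genes (r = 0.404 to 0.595 over 6 pairs of groups). Replicate 2 was the higher in all 4 groups in every member but *Cd274* (3 of 4). With the replicate block (3 residual degrees of freedom), limma called 4 members for efferocytosis alone (2.67% of all genes) and 5 in LPSEff vs LPS (6.97%), and edgeR with the block called 3 and 4 (2.63% and 7.56%). The limma calls were *Icosl* (adjusted p = 0.00605), *Cd40* (0.0121), *Cd83* (0.0305) and *Havcr2* (0.0439, higher) in Eff vs Ctrl, and *Icosl* (0.000667), *Cd80* (0.0135), *Cd83* (0.0237), *Cd86* (0.0418) and *Vsir* (0.0479) in LPSEff vs LPS, lower but for *Havcr2*. In each stimulation comparison limma with the block called 9 members (41.2% and 37.0% of all genes).

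With equal totals, *Havcr2* in LPS vs Ctrl was at -0.28, *Cd274* in LPSEff vs LPS at -0.00913 and the difference between stimulation effects of *Cd83* at -0.00118 (-0.0149 with DESeq2). *Cd274* in LPSEff vs LPS was at -0.049 with quantile normalization. Leaving out 1 sample gave -0.55 to 0.78 for *Havcr2* in LPS vs Ctrl and -0.37 to 0.20 in LPSEff vs Eff. In Eff vs Ctrl it gave -0.99 to 0.23 for *Cd86*, -0.18 to 0.017 for *Cd274* and -0.087 to 0.67 for *Cd276*. In LPSEff vs LPS it gave -0.12 to 0.17 for *Cd274*, -1.03 to 0.58 for *Pdcd1lg2* and -0.16 to 1.47 for *Cd276*. For the difference between stimulation effects it gave -0.78 to 0.22 for *Cd80*, -0.39 to 0.49 for *Cd83*, -0.92 to 0.34 for *Cd86*, -0.036 to 0.26 for *Cd274*, -0.44 to 1.17 for *Pdcd1lg2*, -0.45 to 1.18 for *Cd276* and -0.87 to 0.47 for *Havcr2*. The cause of these changes was not tested. With a sample left out, a group holds 1 sample that is assumed to vary like the others. Of the counts of called genes in the other lists, 427 moved by less than 1.5 times and 43 by more.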
